A study of Mus musculus with 12 samples.

Results

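The genes of mitochondrial protein import and membrane dynamics were followed in the triceps brachii, a forelimb muscle, of 12 male C57/BL6 mice. Members were taken by gene symbol and role, with earlier results of these data known. They were every gene whose symbol starts with Timm or Tomm and a digit, which gave 19 genes, and 15 further genes of matrix chaperones, matrix proteases, fusion, fission and the inner membrane. All 34 were among the 10187 genes measured, and 33 had a mean high enough to be tested. The 4 groups of 3 mice crossed genotype with activity. They were inactive wild-type (IW), active wild-type (AW), inactive myostatin-reduced (IM) and active myostatin-reduced (AM) mice. All mice ate chow with 0.025% tamoxifen for 6 weeks, starting at 4 months of age, which switched on Cre recombinase. Only the myostatin-reduced mice carried Mstn with exon 3 flanked by loxP sites, so loss of myostatin, the muscle growth inhibitor, began in the adult. The promoter that drove Cre was not given in the sources used here. Active mice had a running wheel for 12 weeks from 6 months of age, inactive mice had none, and runners of both genotypes had been matched by the study for how they ran. Active mice were also moved from shared to individual cages. The housing of inactive mice in those weeks was not stated, so effects of running and of housing cannot be told apart here.

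Most mitochondrial proteins are made in the cytosol and are threaded through a channel in the outer membrane, the TOM complex. Proteins bound for the matrix then pass the TIM23 complex of the inner membrane, are pulled in by a heat shock protein motor, and are folded by chaperones or degraded by proteases, whereas carrier proteins take the TIM22 route with help from the small Tim chaperones. The mitochondrial network itself is shaped by fusion and fission, and in muscle it adapts to contractile activity.

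Values were normalized read counts per gene, with estimated depths of 9023561 to 12183769 reads per mouse in the genes of the table. Depth did not separate the activity levels (two-sided exact permutation test within genotype, p = 0.7) or the genotypes (two-sided exact permutation test within activity level, p = 0.275). As a check of the labels, Mstn was 116 ± 31.9 (IW), 93.7 ± 15.1 (AW), 19.0 ± 2.28 (IM) and 12.8 ± 3.76 (AM) (mean ± SD, n = 3 in each). Tissue identity was checked with 8 genes of muscle fibres, such as Acta1, Ckm and Myh4, whose summed values were between 155780 and 224140 in every mouse. Changes were tested with limma on log2(value + 1) over 7247 genes, and a gene was called at a Benjamini-Hochberg adjusted p under 0.05. The p-values measure the spread between these mice.

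With activity, averaged over genotypes, 13 of the 33 members tested rose and 0 fell (limma). By role, with no test between roles, these were 3 of 9 members of the outer membrane translocase, 2 of 4 of the TIM23 complex, 1 of 5 of the TIM22 route, 3 of 4 chaperones, 0 of 3 proteases, 1 of 3 fusion genes, 0 of 2 fission genes and 3 of 3 inner membrane scaffolds. The 20 other members tested were not called. Among the 13, the call of Tomm22 was lost in 5, that of Phb in 7 and those of Tomm5 and Timm10 in 9 of the 12 fits that left out a mouse (limma). Over all genes tested 7.99% rose and 6.51% fell. The members called were Tomm40l, Tomm22, Tomm5, Timm44, Timm50, Timm10, Hspa9, Hspd1, Hspe1, Mfn1, Immt, Phb and Phb2, with log2 changes from 0.18 in Phb to 0.32 in Mfn1. The change was positive in 31 of 33 members, with a median of 0.15, against −0.022 over all genes tested. The largest changes, those of Mfn1 and Tomm40l, were small in fold terms, 1.25-fold each on the value + 1 scale. A call in the other direction, that of Timm17b, appeared with quantile normalization, with array weights, with no variance trend and without IW 3.

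**Figure D1:**
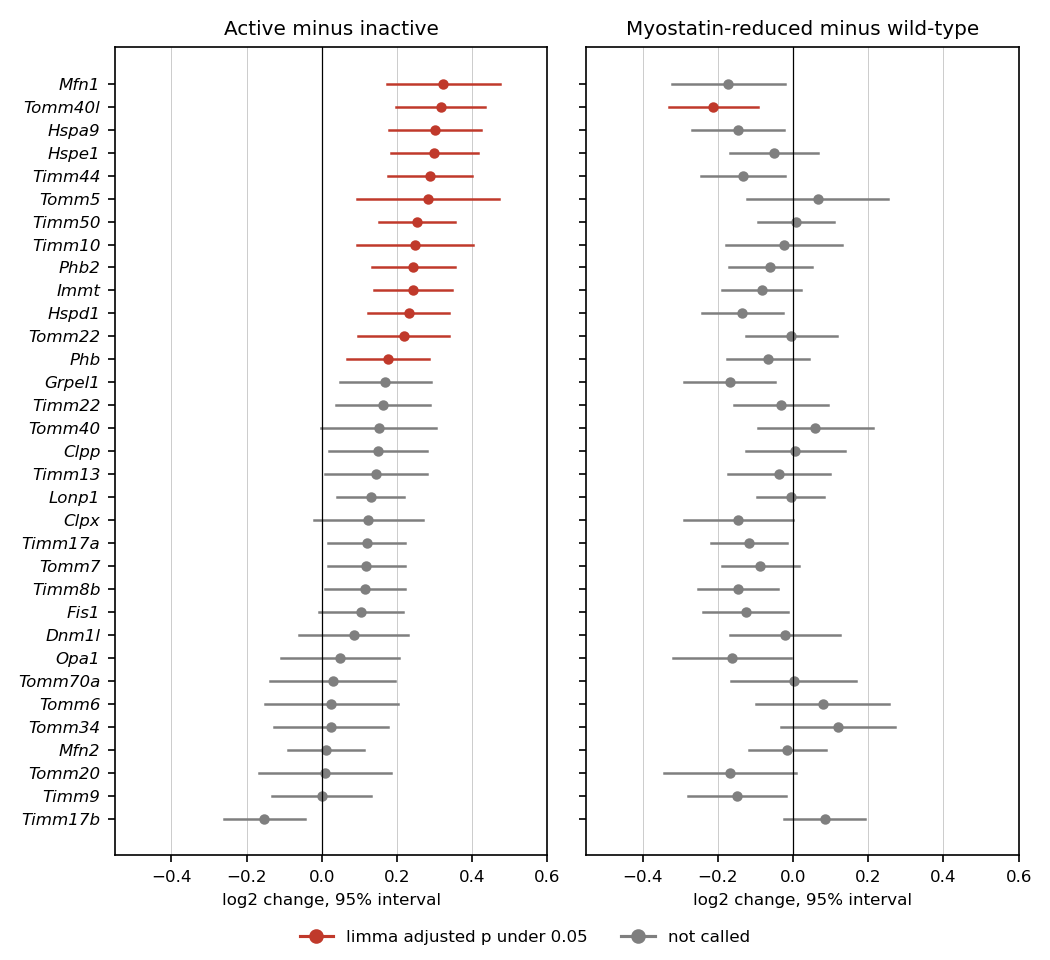
Log2 change of each tested member, active minus inactive on the left and myostatin-reduced minus wild-type on the right, with points for estimates and lines for 95% intervals from limma (12 mice). Of the 33 members, 13 were called for activity, all higher, and 1, Tomm40l, was called for genotype.

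Promoter windows of 3 called members are shown to set the matches to known motifs beside the changes. The windows run from 250 bases before to 50 bases after the start site, read 5′ to 3′ on the strand of the gene, in RefSeq annotation of GRCm38.p6, a later build than the mm9 build of the values. The window of Hspe1 lies at chr1:55087898-55088197 on the plus strand, that of Mfn1 at chr3:32529232-32529531 on the plus strand and that of Timm44 at chr8:4275856-4276155 on the minus strand. Capitals mark matches to the motifs.
Hspe1: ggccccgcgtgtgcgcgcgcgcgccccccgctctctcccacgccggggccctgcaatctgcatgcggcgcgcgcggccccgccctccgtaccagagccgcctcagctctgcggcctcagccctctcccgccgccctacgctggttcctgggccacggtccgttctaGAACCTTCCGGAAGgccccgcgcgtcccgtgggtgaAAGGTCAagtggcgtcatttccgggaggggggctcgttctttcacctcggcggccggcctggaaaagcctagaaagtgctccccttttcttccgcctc
Mfn1: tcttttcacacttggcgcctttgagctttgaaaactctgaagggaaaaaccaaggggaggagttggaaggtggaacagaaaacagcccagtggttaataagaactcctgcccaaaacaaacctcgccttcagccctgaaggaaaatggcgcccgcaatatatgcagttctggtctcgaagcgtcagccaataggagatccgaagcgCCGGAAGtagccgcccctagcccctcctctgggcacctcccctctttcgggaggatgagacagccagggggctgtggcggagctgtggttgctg
Timm44: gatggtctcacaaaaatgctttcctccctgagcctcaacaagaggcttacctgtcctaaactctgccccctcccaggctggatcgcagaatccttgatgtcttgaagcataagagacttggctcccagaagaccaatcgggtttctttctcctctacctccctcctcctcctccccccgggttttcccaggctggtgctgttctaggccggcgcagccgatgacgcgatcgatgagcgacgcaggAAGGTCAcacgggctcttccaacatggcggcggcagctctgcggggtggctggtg

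The motifs searched on both strands were TGCGCA (NRF1 core), CCGGAAG (ETS), AAGGTCA (ERR), GAANNTTC (heat shock element) and TGACGTCA (cAMP response element). In the Hspe1 window the heat shock element overlapped the ETS match, which reads on both strands, and the ERR match followed downstream. Hspd1 is transcribed away from Hspe1, and 285 bases of its window are the same DNA, so both genes count for the same matches. The Mfn1 window held an ETS match and the Timm44 window an ERR match. None of the 5 motifs was found in the windows of Mfn2, which was not called, or in those of Timm50, Phb and Tomm5, which were called.

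Windows were found for 31 of the 34 members. The ETS letters were in 15 of them, which is 48.4%, against 21.7% of 5297 tested genes with a window and 9.93% of all 27025 genes with one. The NRF1 core was in 10 members, or 32.3%, against 17.8% of tested genes and 8.79% of all genes. The ERR letters were in 5 members, Hspd1, Hspe1, Timm44, Timm8b and Timm23, or 16.1%, against 3.81% of tested genes and 5.38% of all genes. The heat shock element was in 3 members, Hspd1, Hspe1 and Timm9, or 9.68%, against 6.74% of tested genes and 9.04% of all genes. The cAMP response element was in 0 members, against 4.04% of tested genes and 2.03% of all genes. Among the 11 members called for activity that had a window, 7 held the ETS letters and 1, Immt, the NRF1 core. Among the 19 tested members not called, 7 held the ETS letters and 8 the NRF1 core. These matches are letters in a window, and no binding was measured.

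In the outer membrane translocase, 3 of 9 members rose with activity, with a median log2 change of 0.12. Tomm40l, a paralogue of the channel gene Tomm40 at chr1:173147933-173152645 (mm9, minus strand), stood at 56.5, 49.4 and 49.2 normalized reads (IW), 61.5, 58.4 and 57.1 (AW), 43.0, 41.2 and 37.8 (IM) and 53.2, 59.2 and 54.2 (AM). Each active group lay above the inactive group of its genotype, and all 3 IM mice were the lowest of the 12. Tomm40l rose with activity by 0.32 (log2, SE 0.055, limma adjusted p = 0.00356) and was lower in myostatin-reduced mice by a log2 change of −0.21 (SE 0.055, limma adjusted p = 0.0431). It was the single member called for genotype, and that call was lost in 10 of the 12 fits that left out a mouse (limma). Tomm40, the channel itself, stood at 31.8, 31.5 and 25.6 (IW), 30.7, 31.1 and 30.4 (AW), 28.2, 30.6 and 27.6 (IM) and 30.0, 37.9 and 35.4 (AM). Active and inactive mice overlapped in both genotypes, and its log2 change of 0.15 was not called (limma adjusted p = 0.169).

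Among the receptors that recognise incoming proteins, Tomm22 was 32.3 ± 2.98 (IW), 38.1 ± 0.189 (AW), 32.6 ± 2.64 (IM) and 37.5 ± 0.615 (AM) (mean ± SD, n = 3). Its 6 active mice, at 36.9 to 38.3, all lay above its 6 inactive mice, at 29.2 to 35.4, with a log2 change of 0.22 (limma adjusted p = 0.0229). The call was lost without AW 2, AW 3, IM 2, IM 3 or AM 2, with adjusted p up to 0.058 (limma). Tomm20, the receptor for presequences, stood at 16.9, 15.96 and 19.4 (IW), 16.7, 16.2 and 17.9 (AW), 13.5, 17.7 and 13.7 (IM) and 15.8, 14.1 and 16.5 (AM). Its groups overlapped, and the log2 change with activity was 0.01 (95% interval −0.17 to 0.18). The receptor Tomm70a and the cytosolic helper Tomm34 had changes of 0.03 and 0.02. Of the small subunits that stabilise the complex, Tomm5 rose by 0.28 (limma adjusted p = 0.0471), whereas Tomm6 and Tomm7 had changes of 0.03 and 0.12 and were not called for activity. The Tomm5 call held only without IW 1, AW 1 or AM 1 and was lost in the other 9 fits that left out a mouse, with adjusted p up to 0.117 (limma). It was also lost with no filter on low values (limma adjusted p = 0.0544), with quantile normalization (0.0623) and with the replicate block (0.0551).

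In the TIM23 complex, 2 of 4 tested members rose, both of them parts around the channel. Timm44, which tethers the import motor to the channel, stood at 67.5, 61.7 and 60.5 (IW), 68.7, 78.5 and 77.1 (AW), 57.5, 55.4 and 53.7 (IM) and 71.0, 74.1 and 66.4 (AM). Active mice were above inactive mice within each genotype, and IM mice were below IW mice. The log2 change with activity was 0.29 (SE 0.052, limma adjusted p = 0.00434), and that with genotype, −0.13, was not called (limma adjusted p = 0.154). Timm50, the receptor that hands proteins from TOM to TIM23, stood at 33.4, 32.3 and 33.9 (IW), 35.3, 39.1 and 39.1 (AW), 32.4, 31.3 and 31.5 (IM) and 38.2, 40.0 and 41.7 (AM). Its 6 active mice all lay above its 6 inactive mice, and it rose by 0.25 (SE 0.047, limma adjusted p = 0.00463). Timm23, the channel itself, was listed at 3.41, 4.80 and 3.65 (IW), 4.76, 4.14 and 3.64 (AW), 3.58, 3.72 and 4.22 (IM) and 4.45, 4.85 and 4.13 (AM). It was the single member below the mean of 10 needed for a test, and its groups overlapped. Whether the counting of reads shared with near-identical copies of the gene bears on this low value was not tested.

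Timm17a and Timm17b encode alternative partners of the TIM23 channel. Timm17a was 86.2 ± 3.83 (IW), 92.7 ± 2.37 (AW), 78.6 ± 5.15 (IM) and 86.3 ± 3.60 (AM) (mean ± SD, n = 3), with a log2 change for activity of 0.12 (limma adjusted p = 0.107). Timm17b was 23.1 ± 1.41, 21.6 ± 0.208, 25.7 ± 1.18 and 22.0 ± 0.452 in the same order, with a change of −0.15 (limma adjusted p = 0.0568). Timm17b was 1 of 2 members with a negative change, the other being Timm9.

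On the TIM22 route 1 of 5 members rose. Timm10, a small chaperone of the intermembrane space, was 12.1 ± 0.267 (IW), 15.3 ± 0.771 (AW), 12.5 ± 0.972 (IM) and 14.4 ± 1.84 (AM) (mean ± SD, n = 3), and rose by 0.25 (limma adjusted p = 0.0374). This call, the single 1 on the route, held only without AW 1, AM 1 or AM 3 and was lost in the other 9 fits that left out a mouse, with adjusted p up to 0.0895 (limma). Its partner Timm9 was not called, at 15.6 ± 0.552, 15.2 ± 0.607, 13.6 ± 0.826 and 14.03 ± 1.02. For Timm9 the 95% interval of the activity change was −0.13 to 0.13. The other pair of small Tims, Timm8b and Timm13, had changes of 0.11 and 0.14, and Timm22, the carrier channel, had 0.16 (limma adjusted p = 0.0758), none of them called.

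Of the 4 chaperones, 3 rose with activity, with a median log2 change of 0.27. Hspa9, the matrix Hsp70 that pulls proteins in, had the highest level of all members per kilobase of the longest annotated transcript, 207 normalized reads per kb. That transcript need not be the one expressed, and the order of levels can depend on it. Hspa9 stood at 661, 584 and 553 (IW), 698, 739.9 and 737 (AW), 559.8, 537 and 497 (IM) and 691, 689.7 and 619.6 (AM). Active mice were above inactive mice within each genotype, AM mice were below AW mice, and IM and IW mice overlapped. The log2 change was 0.30 for activity (SE 0.056, limma adjusted p = 0.00498) and −0.15 for genotype (limma adjusted p = 0.145). Grpel1, the exchange factor that resets Hspa9, had changes of 0.17 (limma adjusted p = 0.0599) and −0.17 (limma adjusted p = 0.0989). Its activity change was called with the filter at a mean of 50 (limma adjusted p = 0.0358), with quantile normalization (0.035), with array weights (0.0489) and without IW 1 (0.0334). Grpel1 was the single member whose myostatin-reduced mice lay below wild-type mice within both activity levels, a pattern found in 2.55% of genes tested.

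Hspd1 and Hspe1 encode the ring and the lid of the matrix chaperonin and start from opposite strands of the same locus. In mm9, Hspd1 lies at chr1:55134679-55145087 on the minus strand and Hspe1 at chr1:55144976-55148151 on the plus strand, with 112 bases shared, and both are about 2 Mb from Mstn (2.01 and 2.02). The sources used here do not say if reads were counted by strand. Hspd1 stood at 129, 117 and 116 (IW), 139.5, 134 and 140.0 (AW), 109.5, 108 and 102 (IM) and 138, 131 and 119 (AM). Active mice were above inactive mice within each genotype, and IM mice were below IW mice. Hspe1 stood at 24.5, 24.3 and 25.9 (IW), 31.9, 29.8 and 29.4 (AW), 25.1, 22.5 and 23.3 (IM) and 28.9, 32.4 and 28.2 (AM). Its 6 active mice all lay above its 6 inactive mice. The activity changes were 0.23 for Hspd1 (limma adjusted p = 0.0105) and 0.30 for Hspe1 (limma adjusted p = 0.00418), and the genotype changes, −0.13 and −0.05, were not called. Hspe1, Timm50 and Tomm22 were the 3 members with all active above all inactive mice, which was so for 3.09% of genes tested. The reverse, all active below all inactive, held for 0 members and for 1.2% of genes.

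**Figure D2:**
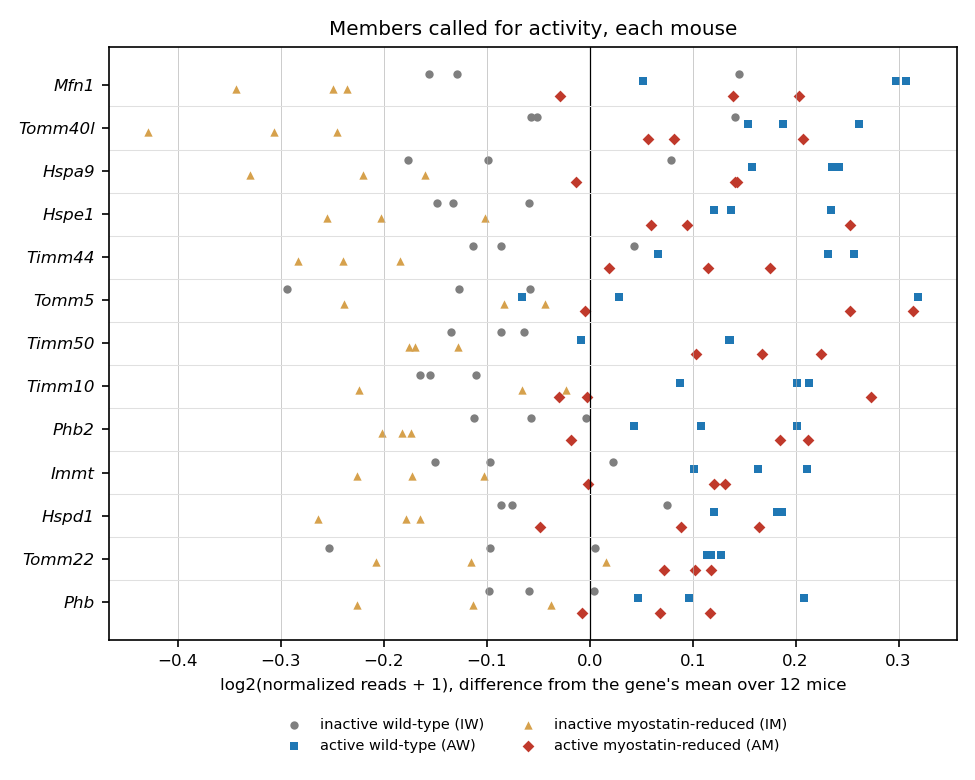
The 13 members called for activity, 1 per row, with each mouse as a point coloured by group. The horizontal axis is the log2(normalized reads + 1) value minus the mean of the gene over 12 mice. Active mice (squares and diamonds) sit to the right of the inactive mice of their genotype except in Mfn1, Tomm5 and Timm10, and all 3 IM mice are farthest to the left in Tomm40l, Mfn1, Hspd1, Timm44 and Phb2.

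None of the 3 matrix proteases was called for activity as tested here. Lonp1, which degrades damaged matrix proteins, stood at 115, 113 and 123 (IW), 129, 129 and 125 (AW), 118, 116 and 115 (IM) and 121, 130.3 and 131 (AM). Active mice were above inactive mice within each genotype, and the change of 0.13 was not called (95% interval 0.04 to 0.22, limma adjusted p = 0.0515). The call of Lonp1 turned on the processing, since it was made with the filter at a mean of 50 (limma adjusted p = 0.0255), with median scaling (0.0366), with quantile normalization (0.0221) and with array weights (0.0283), and also without IW 3 (0.0415) or AM 1 (0.0326). Clpp, the peptidase of the ClpXP protease, stood at 24.9, 22.1 and 24.0 (IW), 24.8, 27.7 and 26.7 (AW), 23.4, 22.8 and 25.1 (IM) and 23.9, 29.0 and 26.8 (AM). Its groups overlapped, and its change of 0.15 was not called (limma adjusted p = 0.116), except with array weights (limma adjusted p = 0.0342) or without AM 1 (limma adjusted p = 0.0454). Clpx, the unfoldase of the same protease, had a change of 0.12 (limma adjusted p = 0.233). At an unadjusted p under 0.05, 2 of the 3 proteases passed, against 30.2% of all genes.

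Of the 3 fusion genes 1, Mfn1, was called for activity. Mfn1, an outer membrane GTPase that docks mitochondria for fusion, stood at 309.7, 256 and 251 (IW), 290.1, 347 and 344 (AW), 235, 238 and 220.4 (IM) and 308, 322 and 274 (AM). The IM mice lay below all other mice, and IW and AW overlapped through 1 mouse of each. Mfn1 rose with activity by 0.32 (SE 0.069, limma adjusted p = 0.0101), and its genotype change of −0.17 was not called (limma adjusted p = 0.164). Mfn2, the related GTPase that also tethers mitochondria to the endoplasmic reticulum, stood at 859, 844 and 874 (IW), 811, 846 and 829 (AW), 824, 771 and 847 (IM) and 793, 887 and 894 (AM). All groups overlapped, and the change with activity was 0.01 (95% interval −0.09 to 0.11, limma adjusted p = 0.895). Opa1, which fuses the inner membrane, stood at 196, 177 and 158 (IW), 182, 196 and 194 (AW), 173, 173 and 149 (IM) and 186, 162 and 144 (AM). Its changes were 0.05 for activity (limma adjusted p = 0.68) and −0.16 for genotype (limma adjusted p = 0.211), and no group stood apart. In level per kilobase Mfn2, at 193, was second among the members, with Mfn1 at 62.0 and Opa1 at 28.0.

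Neither fission gene was called for activity or genotype. Dnm1l, the GTPase that constricts mitochondria, stood at 109, 113 and 95.1 (IW), 110.3, 127 and 107 (AW), 111, 107 and 100.4 (IM) and 124, 108 and 101 (AM). Fis1, an outer membrane adaptor, stood at 63.1, 69.7 and 70.6 (IW), 73.3, 74.5 and 72.9 (AW), 65.7, 62.3 and 59.9 (IM) and 61.6, 66.0 and 72.8 (AM). All groups overlapped for Dnm1l. For Fis1 the AW mice lay above the IW mice, while AM and IM overlapped. The activity changes were 0.08 for Dnm1l (95% interval −0.06 to 0.23) and 0.10 for Fis1 (95% interval −0.01 to 0.22). Between AW and IM mice the difference of Fis1, 0.23, had a limma adjusted p of 0.0452, a call that held only without IW 1, AM 1 or AM 3 among the 12 fits that left out a mouse.

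All 3 inner membrane scaffolds rose with activity. Immt, or mitofilin, which holds the necks of cristae, stood at 361, 332 and 319.9 (IW), 381, 411 and 398 (AW), 331, 315 and 304 (IM) and 389, 386 and 355 (AM). Phb and Phb2 form the prohibitin ring of the inner membrane. Phb stood at 47.2, 48.5 and 50.7 (IW), 58.6, 52.3 and 54.1 (AW), 49.2, 43.1 and 46.7 (IM) and 53.1, 54.9 and 50.3 (AM). Phb2 stood at 97.5, 93.8 and 101 (IW), 105, 109 and 117 (AW), 89.3, 89.8 and 88.1 (IM) and 100.2, 118 and 115 (AM). In all 3 genes active mice were above inactive mice within each genotype, and only for Phb2 were the IM mice also all below the IW mice. The activity changes were 0.24 for Immt (limma adjusted p = 0.00698), 0.18 for Phb (limma adjusted p = 0.0359) and 0.24 for Phb2 (limma adjusted p = 0.00898). The call of Phb was lost in 7 of the 12 fits that left out a mouse, with adjusted p up to 0.0866 (limma). Those fits left out IW 1, IW 2, AW 1, AW 3, IM 2, IM 3 or AM 2.

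For genotype, averaged over activity, 0 members rose and 1 fell, Tomm40l, against 3.57% of all genes tested that rose and 2.21% that fell. The change was negative in 25 of 33 members, with a median of −0.06, against −0.0049 over all genes tested. At an unadjusted p under 0.05, 12 of the 33 passed in limma, against 22.5% of all genes. The genotype call of Tomm40l held without IW 3 or AM 2 and was lost in the other 10 fits that left out a mouse, with adjusted p up to 0.1075 (limma). Hspd1, Hspe1, Timm17a and Tomm40l share chromosome 1 with Mstn, at 2.01, 2.02, 84.07 and 120.02 Mb from it. For their genotype changes, an effect of myostatin and one of the DNA around the altered Mstn allele cannot be told apart here.

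Within activity levels, 0 members rose and 1 fell in IM relative to IW mice, Tomm40l, whose log2 change was −0.34 (limma adjusted p = 0.0433). Of all genes tested, 1.38% rose and 1.13% fell in that comparison. The call held without AW 1, AM 1 or AM 2 and was lost without any of the other mice. The call was also lost with no variance trend, with the replicate block and with the slow-fibre covariate. Between AM and AW mice 0 members were called, and 0.207% of all genes were called. At an unadjusted p under 0.05 in limma 1 member passed, against 12.3% of all genes. In counts of mice, 8 of the 33 members had all 3 IM mice below all 3 IW mice, against 12.7% of all genes, and 4 had all AM mice below all AW mice, against 7.47%.

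The activity change was then followed within each genotype. Between AW and IW mice 0 members were called by limma, with a smallest adjusted p of 0.12, and 0.0276% of all genes were called. At an unadjusted p under 0.05, 14 of the 33 passed, against 14.7% of all genes (limma). Between AM and IM mice 9 members rose and 0 fell, against 5.31% and 2.53% of all genes. These were Tomm40l, Timm50, Timm44, Phb2, Hspe1, Hspa9, Mfn1, Hspd1 and Immt, with log2 changes from 0.25 in Immt to 0.44 in Tomm40l. The count was 1 without AM 2, IM 2 or IM 3 and 4 without IM 1. In counts of mice, 16 of the 33 members had all AW mice above all IW mice, against 9.09% of all genes, 17 had all AM mice above all IM mice, against 14.5%, and 12 had both, against 4.84%. In 0 members did the genotypes separate in opposite directions, a pattern not counted over all genes, so nothing is read from it.

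The test of the difference itself, the interaction, called 0 members and 0% of all genes in limma, and 1 member passed an unadjusted p under 0.05, against 4.1% of all genes. That member was Tomm40l, whose activity change was 0.44 in myostatin-reduced and 0.19 in wild-type mice, a difference of 0.25 (95% interval 0.01 to 0.49, limma adjusted p = 0.89). The next smallest p-values belonged to Timm50 and Phb2, both with a difference of 0.14 and an adjusted p of 0.89 (limma). The activity changes of the genotypes were therefore not shown to differ for any member.

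The AW and IM mice differ in both factors. Between them 15 members were higher in AW and 1 was lower, against 9.15% and 9.52% of all genes. Tomm40l had the largest change, 0.53 (limma adjusted p = 0.0017), followed by Mfn1 at 0.49, Hspa9 at 0.45 and Timm44 at 0.42, and the member lower in AW was Timm17b at −0.24 (limma adjusted p = 0.034). Of the 15 higher, 5 had not been called for activity. These were Grpel1 at 0.34, Timm8b at 0.26, Timm17a at 0.24, Fis1 at 0.23 and Tomm7 at 0.21, with limma adjusted p from 0.0123 in Grpel1 to 0.0494 in Tomm7. Of the 12 fits that left out a mouse, the call of Tomm7 was lost in 11, all but the one without IW 3, that of Fis1 in 9, those of Timm17a (without AW 2, AW 3, IM 2 or IM 3) and Timm8b (without AW 1, AW 2, IM 2 or IM 3) in 4, and that of Grpel1 in 2 (without AW 3 or IM 3). The calls of Tomm7 and Fis1 were also lost with no filter on low values, with no variance trend, with the replicate block and with the slow-fibre covariate, and those of Grpel1, Timm8b and Timm17a with the covariate. The count was 8 without AW 3 or IM 3 and 9 without AW 2 or IM 2, and the call of Timm17b was lost in 6 fits, those without any 1 of the AW or IM mice, and with the slow-fibre covariate.

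Some members come in pairs that share a task, so the ratio within a mouse was compared. The 4 pairs were tested for both factors with a two-sided exact permutation test of the log2 ratio within the levels of the other factor (400 arrangements, smallest possible p = 0.005), with Benjamini-Hochberg adjustment over 8 tests. These tests were added after the changes of single members had been seen. The Timm17a to Timm17b ratio stood at 3.78, 3.46 and 3.97 (IW), 4.18, 4.31 and 4.38 (AW), 3.19, 2.76 and 3.25 (IM) and 3.82, 3.98 and 3.97 (AM). All 3 IM mice were below all other mice, and all 3 AW mice were above them. The log2 ratio was higher by 0.28 in active mice (exact p = 0.005, adjusted p = 0.0133) and its genotype change was −0.21 (exact p = 0.005, adjusted p = 0.0133). Both changes kept an adjusted p under 0.05 without each of the 12 mice in turn, with exact permutation p-values adjusted to at most 0.04.

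The Tomm40l to Tomm40 ratio stood at 1.78, 1.57 and 1.92 (IW), 2.00, 1.88 and 1.88 (AW), 1.52, 1.35 and 1.37 (IM) and 1.78, 1.56 and 1.53 (AM). Wild-type mice lay above myostatin-reduced mice within both activity levels. The genotype change of the log2 ratio was −0.28 (exact p = 0.005, adjusted p = 0.0133) and that with activity was 0.17 (exact p = 0.025, adjusted p = 0.04). The activity change passed in 3 of the 12 tests that left out a mouse, with adjusted p up to 0.112 (exact permutation test). Timm17a and Tomm40l lie on the chromosome of Mstn, so the limit given above for the altered Mstn allele also covers the genotype changes of both ratios.

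The Mfn1 to Mfn2 ratio stood at 0.361, 0.303 and 0.288 (IW), 0.358, 0.410 and 0.415 (AW), 0.286, 0.308 and 0.260 (IM) and 0.389, 0.363 and 0.307 (AM). Active and inactive mice overlapped slightly in both genotypes. The log2 ratio was higher by 0.31 in active mice (exact p = 0.02, adjusted p = 0.04), and this passed in 6 of the 12 tests that left out a mouse. For genotype the change was −0.16 (exact p = 0.095, adjusted p = 0.127). For Hspd1 over Hspe1 the groups overlapped, at 4.47 to 5.28 (IW), 4.37 to 4.76 (AW), 4.37 to 4.83 (IM) and 4.04 to 4.77 (AM), and neither change passed (exact p = 0.175 for activity and 0.165 for genotype). These ratios are of normalized reads not divided by length, so only their differences between mice are read here.

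**Figure D3:**
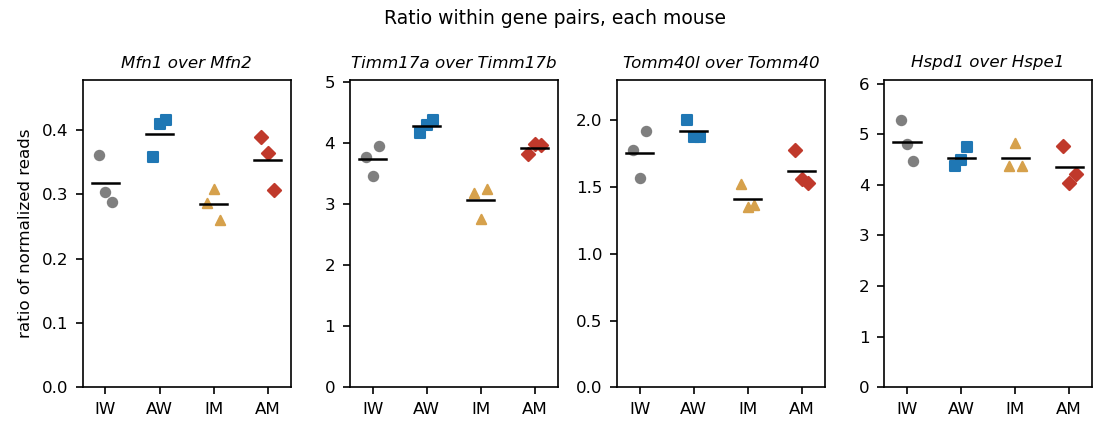
Ratio of normalized reads within 4 gene pairs, each point 1 mouse and each bar the mean of 3 mice, by group (IW and IM inactive, AW and AM active). The Timm17a to Timm17b ratio was 2.76 to 3.25 in IM mice and 4.18 to 4.38 in AW mice, with no overlap between them.

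The members were set beside other nuclear genes of the mitochondrion without a test of the difference. Of 78 tested genes of nuclear oxidative phosphorylation 73 rose with activity, with a median log2 change of 0.35, and of 73 tested genes of the mitochondrial ribosome 42 rose, with a median of 0.20. The members, at 13 of 33 and 0.15, had the lowest share and the lowest median of the 3. The genotype medians were −0.14 for oxidative phosphorylation and −0.06 for both the ribosome and the members.

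Of further genes of import and processing, 25 were in the table and 22 were tested. With activity 7 rose and 0 fell, with a median of 0.11. The largest were Mtx2, an outer membrane metaxin, at 0.40 (limma adjusted p = 0.0137), Mtch1 at 0.32 (limma adjusted p = 0.00378) and Dnajc15, a co-chaperone of the import motor, at 0.25 (limma adjusted p = 0.00943). For genotype 0 of the 22 were called by limma, and 4 passed an unadjusted p under 0.05, against 22.5% of all genes.

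Of further genes of mitochondrial shape and quality control, 34 were in the table and 30 were tested. With activity 9 rose and 0 fell, with a median of 0.10. Mtfp1, a regulator of fission at the inner membrane, changed by 0.53 (limma adjusted p = 0.00178), Letm1, an inner membrane ion exchanger, by 0.37 (limma adjusted p = 0.00179) and Rhot2, a GTPase that links mitochondria to transport along microtubules, by 0.29 (limma adjusted p = 0.0019). For genotype Gdap1, an outer membrane protein that promotes fission, rose by 0.58 (limma adjusted p = 0.0101), and Fam73a at −0.40 and Trak2, a transport adaptor, at −0.27 fell (limma adjusted p = 0.0383 and 0.0434). The Gdap1 call held without each mouse in turn. Without IW 1, IW 2, AW 2, AW 3, IM 1, IM 2, IM 3 or AM 3 neither Fam73a nor Trak2 was called, and without AM 1 Trak2 was not, with adjusted p up to 0.111 (limma). In mm9 Trak2 lies 5.83 Mb and Gdap1 35.96 Mb from Mstn on chromosome 1, and an effect of myostatin and one of the DNA around the altered Mstn allele cannot be told apart here.

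**Figure D4:**
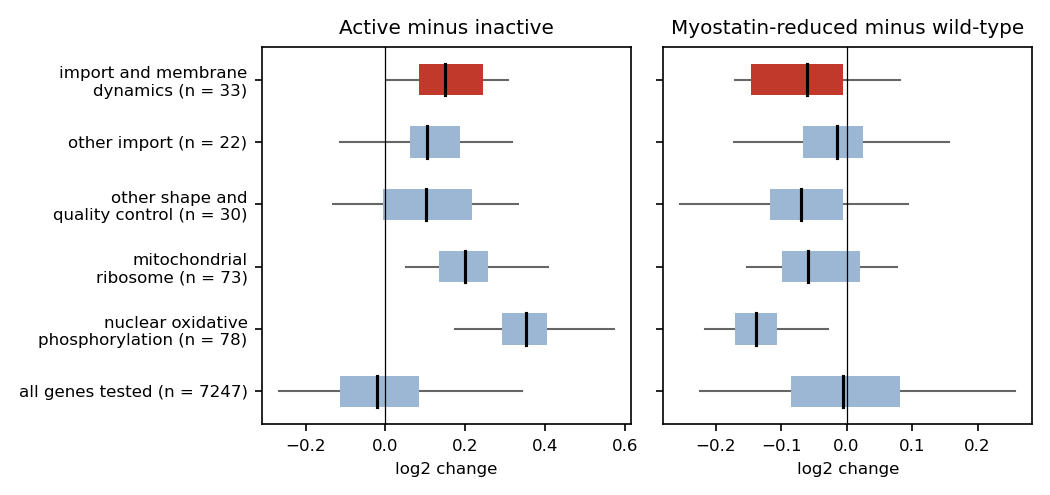
Log2 changes of the genes in each list, with boxes from the 25th to the 75th percentile, lines from the 5th to the 95th percentile and a black bar at the median. The median activity change of the members was 0.15, between −0.022 over all 7247 genes tested and 0.35 for nuclear oxidative phosphorylation.

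Muscles of the same group differed in how much slow-fibre RNA they held. The 11 slow-fibre genes, such as Myh7 and Tnnt1, summed to 94.3 to 1370 normalized reads (IW), 151 to 1831 (AW), 78.3 to 111.7 (IM) and 117 to 1343 (AM). With activity 1 of the 11 was called and 5 passed an unadjusted p under 0.05, against 30.2% of all genes (limma). The level of the members, the mean log2 deviation over the 33 genes, was 0.0018, −0.0502 and −0.0627 (IW), 0.0855, 0.1139 and 0.0978 (AW), −0.0938, −0.1035 and −0.1448 (IM) and 0.0312, 0.0749 and 0.05 (AM). On this level every active mouse was above every inactive mouse. The same held for the genes of nuclear oxidative phosphorylation, of the mitochondrial ribosome and of further shape and quality control. It did not hold for the further genes of import and processing. The part of slow-fibre RNA in the level of the members was examined only through the covariate fit that follows.

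With the slow-fibre level as a covariate, 10 members were called for activity by limma, of which 9 had also been called without it, and 401 genes in all were called in place of 1051. Of the members that lost their call, Hspd1 went from 0.23 to 0.19 (limma adjusted p = 0.0633), Tomm5 from 0.28 to 0.23 (limma adjusted p = 0.206) and Timm10 from 0.25 to 0.18 (limma adjusted p = 0.214), whereas Phb stood at 0.18 before and 0.19 after (limma adjusted p = 0.0828). Timm22 gained a call, at 0.24 (limma adjusted p = 0.0349). Adjusted for this level, the log2 changes were 0.29 for Tomm40l, 0.30 for Hspe1, 0.24 for Hspa9, 0.22 for Timm44 and 0.20 for Mfn1. The genotype change of Tomm40l became −0.19 and lost its call (limma adjusted p = 0.0895). Between AM and IM mice 1 member remained called, and between AW and IM mice 4. Counts over all genes were not taken for these comparisons under the covariate, so the losses are not read as particular to the members.

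**Figure D5:**
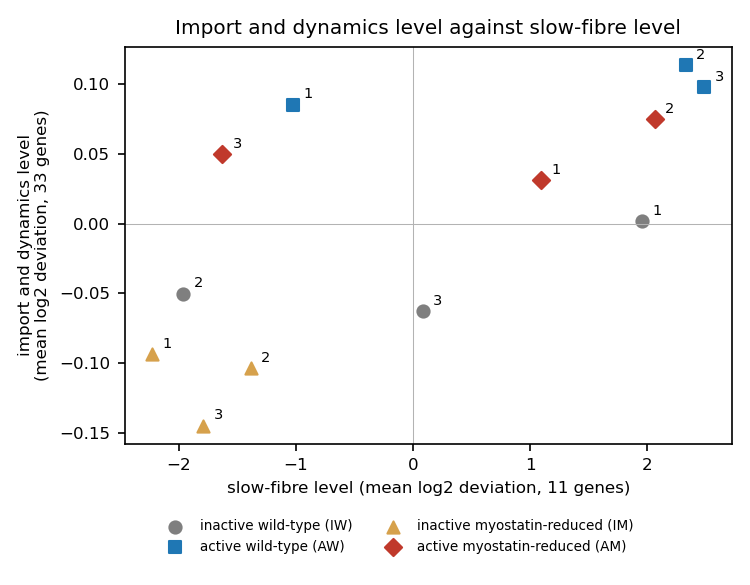
Each of the 12 mice by its slow-fibre level (mean log2 deviation over 11 genes, horizontal) and its level of import and dynamics genes (mean log2 deviation over 33 genes, vertical), with numbers for the replicate. The active mice lie at 0.0312 or higher and the inactive mice at 0.0018 or lower on the vertical axis.

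The fast myosin heavy chains moved with activity as well. Of the 8 muscle fibre genes, 2 rose, 1 fell and 5 were not called by limma. Myh1, of type IIx fibres, stood at 11089, 3920 and 6200 (IW), 8406, 11562 and 12563 (AW), 2929, 2643 and 1727 (IM) and 11194, 14698 and 9430 (AM), and rose by 1.51 (log2, limma adjusted p = 0.0019). Myh2, of type IIa fibres, stood at 2515, 627 and 968 (IW), 899, 4900 and 3102 (AW), 354, 557 and 89.9 (IM) and 2932, 3323 and 1015 (AM), and rose by 2.04 (limma adjusted p = 0.0251). Without IW 2, IW 3, AW 2, AW 3, IM 3 or AM 2 the Myh2 call was lost, with adjusted p up to 0.0689 (limma), and with the slow-fibre covariate its change was 1.09 (limma adjusted p = 0.132). Myh4, of type IIb fibres, stood at 73727, 96845 and 82555 (IW), 75908, 56811 and 54013 (AW), 106795, 104829 and 106207 (IM) and 66296, 54103 and 78856 (AM), with a log2 change of −0.57 (limma adjusted p = 0.0127). Quantile normalization gives Myh4 no change, since it sets the highest gene of each mouse to 1 value. All 3 IM mice were the lowest of the 12 for Myh1 and for Myh2 and the highest for Myh4, and in all 3 genes AM and IM mice did not overlap. The part of these fast-fibre genes in the changes of the members was not tested.

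Markers of other cells were also examined. Of 8 endothelial genes, such as Pecam1 and Kdr, 6 rose with activity, with a median log2 change of 0.48. Their summed level was 312 to 422 (IW), 322 to 546 (AW), 286 to 306 (IM) and 375 to 628 (AM), and the part of endothelial RNA in the changes of the members was not tested. In bulk muscle, more cells of a type and more RNA per cell cannot be told apart. Of 4 fibroblast, 1 macrophage, 1 adipocyte and 3 Schwann cell genes that could be tested, 0 were called for activity or genotype by limma, and 2 of the 4 fibroblast genes passed an unadjusted p under 0.05 for activity. The single red cell gene in the table was too low to be tested.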

How the data were processed

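The authors sequenced polyadenylated RNA as 65-base single-end reads, mapped them with CASAVA to mm9 and counted reads in RefSeq exons per gene. The deposited signal is a normalized read count that the authors scaled to an equal trimmed mean, leaving out the highest and lowest 5% of genes. Too few values came out as whole reads for a count model (88.8% to 91.2% of values under 5 and 57.6% to 69.8% of those between 20 and 50 were whole, within 0.0055 normalized reads). Genes with a mean of at least 10 entered limma (version 3.58.1, R 4.3.3) as log2(value + 1), with a mean per group and a variance trend. Fold changes on this scale understate changes of low genes. The replicate numbers of the titles mark different mice, and the groups were fitted without pairing them.

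Depth was estimated from the value of 1 read (0.077 to 0.105). A floor of 3 reads was 0.231 to 0.316 normalized reads, covering counting error only. All members were named, and 19 were described in full: 16 by role, the members with the largest called activity and genotype changes and the smallest interaction p-values. Members and lists were chosen with earlier results of these data known. Pair ratios were added after seeing the data, in Python 3.11.15. Alternatives covered pseudocount, filter, scaling, weights, variance trend, replicate block, slow-fibre level and left-out mice. The study's tests of isoforms, which need the reads, were not repeated.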

Additional observations from a re-analysis of the deposited data

How the results depend on the processing

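The count of members called for activity was 10 to 17 under 10 other settings and 9 to 15 when each mouse was left out. It held 1 fall, Timm17b, beside 14 rises with quantile normalization, 16 with array weights, 13 with no variance trend and 12 without IW 3. Over all genes, activity calls ranged from 401 with the slow-fibre covariate to 1740 with array weights, and from 552 to 1485 when each mouse was left out. For genotype these ranges were 272 to 608 and 180 to 579. The shifts in member counts are therefore not read as particular to the members. The genotype count of 1 became 0 with no filter on low values, with no variance trend and with the slow-fibre covariate, and was 0 to 1 without each mouse. The IM against IW count of 1 became 0 with no variance trend, with the replicate block and with the slow-fibre covariate, and was 0 to 1 without each mouse. With the slow-fibre covariate the AM against IM count fell from 9 to 1 and the AW against IM count from 16 to 4. Without each mouse these were 1 to 9 and 8 to 16. Counts over all genes in these comparisons were not taken for these fits. With array weights 4 members were called between AW and IW mice in place of 0. The cause of these shifts was not tested. The pairing check gave 18 correlations between mice of the same number, from −0.60 to 0.48 with a median of 0.12, and 9 were over 0.1. The 3 between IM and AM mice were 0.17 to 0.32. With the replicate block 12 members were called for activity, 1 for genotype, 9 between AM and IM and 14 between AW and IM mice.

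Signs turned only where no call was made. For activity, Tomm20 was −0.017 with quantile normalization, Opa1 −0.025 with the slow-fibre covariate, Tomm70a −0.0019 and Tomm6 −0.00051 with array weights, and Timm9 0.0079 with median scaling, 0.0019 with array weights and 0.0083 with the slow-fibre covariate. For genotype, array weights gave 0.00394 for Lonp1, −0.00308 for Clpp and −0.00138 for Timm50, median scaling −0.0018 for Tomm70a, and the slow-fibre covariate 0.027 for Timm10 and −0.015 for Tomm6.

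Without each mouse in turn the activity changes ranged from −0.025 to 0.068 for Tomm20, −0.0078 to 0.039 for Mfn2, −0.028 to 0.023 for Timm9, −0.019 to 0.061 for Tomm34, −0.035 to 0.073 for Tomm6 and −0.033 to 0.063 for Tomm70a. The genotype changes ranged from −0.019 to 0.013 for Lonp1, −0.025 to 0.042 for Clpp, −0.030 to 0.013 for Mfn2, −0.064 to 0.014 for Dnm1l, −0.017 to 0.023 for Timm50, −0.072 to 0.0059 for Timm10, −0.071 to 0.0051 for Timm13, −0.039 to 0.025 for Tomm22 and −0.060 to 0.035 for Tomm70a. With the slow-fibre covariate the calls of Mtx2 (activity), Fam73a and Trak2 (genotype) were also lost, and that of Trak2 with median scaling, quantile normalization and no variance trend.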
